A study of Homo sapiens with 40 samples.

Results

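The solute carriers described here were 122 genes of the 15788 in the deposited expression table. They were chosen by expression level: rows with a solute carrier symbol (SLC, a family number, A and a member number) and a mean of at least 5 normalised TPM over all 40 libraries. TPM is a transcript level scaled for length and depth, and the authors also adjusted it between samples. Of the 226 rows with such a symbol, 100 had a mean under 5, and 4 of the well expressed ones were left out by the rule: SLC7A5, SLC3A2, SLC7A11 and SLC38A2. The mean over all groups chose the members, so a gene near 5 could enter through the treated libraries. In vehicle 116 of the 122 carriers were at 5 or above, and the 6 below it were SLC19A2, SLC16A7, SLC25A30, SLC4A8, SLC1A1 and SLC25A12. The members nearest the threshold were SLC4A8 with a mean of 5.10, SLC1A1 with 5.07 and SLC25A12 with 5.01. Just outside it were SLC6A8 with 4.96, SLC25A42 with 4.60 and SLC26A11 with 4.49. All 122 carriers passed the filter for testing, a mean of at least 1.

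BEAS-2B is an immortalised human bronchial epithelial line, and every library came from it. Confluent cultures, kept overnight without serum, were treated for 2 h in 10 groups of 4 libraries. Of the 5 groups without RNO, 1 received vehicle, 1 received vilanterol, which activates β2-adrenoceptors (100 nM), and 3 received the EP4 receptor agonist ONO-AE1-329, called ONO from here on (0.1 nM, 1 nM or 1 uM). The other 5 had the same 5 additions plus RNO (1 uM). The labels give RNO only by its abbreviation; it is the usual short form of roflumilast N-oxide, an inhibitor of PDE4, the phosphodiesterases that break down cAMP. The labels do not say whether the 4 libraries of a group came from separate cultures, so the spread behind each p-value is that of the libraries at hand and could be technical. Sequencing used 2 kits, and the kit of a given library is not in the labels.

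Solute carriers are membrane proteins that move small molecules and ions across the plasma membrane or the membranes of organelles: sugars, amino acids, metals, vitamins, anions, nucleotides and metabolites. Most work as exchangers, as cotransporters driven by an ion gradient or as facilitative carriers, and the SLC25 family forms the shuttle between cytosol and mitochondrial matrix. Adenylyl cyclase is stimulated downstream of EP4 as well as of β2-adrenoceptors, and its product cAMP activates protein kinase A and the transcription factor CREB, which binds the cAMP response element in promoters. Airway epithelium uses carriers for fluid secretion, pH control, nutrient supply and metal handling.

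The libraries carried the keratins of an epithelial line, with KRT17 between 247 and 1510 normalised TPM, KRT8 at a mean of 359 and KRT18 at 292. EPCAM was near 0 (mean 0.265) and CDH1 was low (0.745), while VIM was at 1306 and COL1A1 at 495. Of the 8 basal epithelial markers looked for, KRT5, KRT14 and TP63 were not among the 15788 genes with values. The summed leukocyte markers measured did not exceed 0.632 normalised TPM in any library, nor the endothelial ones 0.800. Library totals lay between 956888 and 1091470 normalised TPM, and read depth is unknown. The 122 carriers together made up between 0.383% and 0.442% of a library's total. That share was 0.403% ± 0.0145 (SD, n = 4) in vehicle and 0.431% ± 0.00363 (SD, n = 4) with vilanterol. Vehicle replicate 3 stood apart. Its total was the highest, 1091470 against at most 1013360 in the other libraries, its median gene the lowest (8.47 against at least 8.78), and its carrier share the lowest. Its deviations from the group mean over all genes had the largest SD, 0.209 on the log2 scale against at most 0.169. It enters every comparison with vehicle; where a call described here was lost without it, this is stated beside the call.

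Promoter sequence from RefSeq (build GRCh38.p14) was at hand for 99 of the 122 carriers, as the 250 bases before each annotated start, 154 windows in all. The stretches shown belong to SLC25A33 and to 4 of the carriers with the steepest graded response, SLC19A2, SLC26A2, SLC30A1 and SLC22A5. Of the 32 carriers called higher in at least 1 treatment, 23 had a window, and SLC2A3 was among those without. SLC25A33 was the only one of the 23 whose window held a full cAMP response element. For SLC19A2 and SLC26A2 only the first 200 and 220 of the 250 bases are shown. Capitals mark the element TGACGTCA or its core, TGACG, on either strand (CGTCA when read on the printed strand); the core is part of the full element. Each is printed 5′ to 3′ on the gene's strand. SLC19A2 lies at chr1:169486021-169486220 (minus strand), SLC26A2 at chr5:149960508-149960727 (plus), SLC30A1 at chr1:211579162-211579411 (minus), SLC22A5 at chr5:132369460-132369709 (plus) and SLC25A33 at chr1:9539215-9539464 (plus).
SLC19A2: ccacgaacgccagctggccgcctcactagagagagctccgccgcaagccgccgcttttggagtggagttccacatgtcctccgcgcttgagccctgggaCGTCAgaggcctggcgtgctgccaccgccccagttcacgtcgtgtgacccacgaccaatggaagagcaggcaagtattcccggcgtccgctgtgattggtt
SLC26A2: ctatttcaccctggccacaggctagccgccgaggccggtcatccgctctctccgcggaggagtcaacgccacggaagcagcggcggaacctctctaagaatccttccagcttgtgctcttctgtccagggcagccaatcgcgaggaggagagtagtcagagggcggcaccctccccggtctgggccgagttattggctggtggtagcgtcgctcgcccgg
SLC30A1: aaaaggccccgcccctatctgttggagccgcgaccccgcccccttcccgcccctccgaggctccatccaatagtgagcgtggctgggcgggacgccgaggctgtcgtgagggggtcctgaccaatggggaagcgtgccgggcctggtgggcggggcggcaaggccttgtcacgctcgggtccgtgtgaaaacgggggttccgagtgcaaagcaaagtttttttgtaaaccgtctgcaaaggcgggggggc
SLC22A5: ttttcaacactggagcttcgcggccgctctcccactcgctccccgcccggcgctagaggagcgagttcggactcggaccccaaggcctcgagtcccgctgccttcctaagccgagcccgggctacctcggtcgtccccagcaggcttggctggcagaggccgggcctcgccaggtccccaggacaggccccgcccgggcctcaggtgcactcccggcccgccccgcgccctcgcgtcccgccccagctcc
SLC25A33: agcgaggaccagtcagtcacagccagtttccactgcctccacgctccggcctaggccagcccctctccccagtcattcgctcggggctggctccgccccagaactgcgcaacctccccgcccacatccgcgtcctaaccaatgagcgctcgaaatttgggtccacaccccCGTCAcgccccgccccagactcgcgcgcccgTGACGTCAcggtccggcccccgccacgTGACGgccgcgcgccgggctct
The stretch of SLC19A2 held 1 core on the opposite strand and that of SLC25A33 held the full element with cores on both sides. No core was found in the stretches of SLC26A2, SLC30A1 and SLC22A5, which says only that these letters are not in them. The other 4 carriers with a full element in a window are shown with 8 bases on each side, from SLC39A1 at chr1:153963640-153963663 (minus), SLC25A36 at chr3:140941711-140941734 (plus), SLC25A25 at chr9:128098299-128098322 (plus) and SLC31A1 at chr9:113221444-113221467 (plus).
SLC39A1: ctcctaacTGACGTCActcccggt
SLC25A36: agagtgcgTGACGTCAcgacgctc
SLC25A25: gggagcggTGACGTCAgccctgat
SLC31A1: gcgccgagTGACGTCAggcctctc
Of these 4, SLC39A1 was called lower with vilanterol and the other three were called in no comparison. The full element was in 5 of the 154 windows of the carriers (3.25%) and in 578 of all 35116 windows of the same length (1.65%). The core was in 11 of 34 windows of the carriers called higher (32.4%), in 31 of 111 of those never called (27.9%) and in 21.2% of all windows. These shares are descriptions of letters in windows, without a test.

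Most of the carriers held their level across all treatments. Between the lowest and the highest of the 10 group means the median carrier differed 1.12-fold, 98 of the 122 differed by less than 1.2-fold, 6 by more than 1.5-fold and 2 by more than 2-fold. A carrier is counted as called where limma's test, fitted on all 12591 genes tested, gave a Benjamini-Hochberg adjusted p under 0.05. By that rule 38 carriers were called against vehicle in at least 1 treatment, 32 higher and 6 lower, none in both directions, and 84 in no comparison. The matching shares over all genes were not worked out, so these counts do not set the carriers apart from other genes. The limma F test over all 10 groups called 33 of the 122, 27.0%, beside 17.5% of all genes tested. The 32 called higher and the 33 both include SLC19A2, SLC16A7 and SLC25A30, which met the level rule only through treated libraries. Because these are bulk libraries, fewer cells with a transcript and less of it per cell cannot be told apart.

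The carriers of highest level were mitochondrial and varied little. SLC25A6 and SLC25A5, which exchange ADP and ATP across the inner mitochondrial membrane, had means of 450.0 and 405 normalised TPM over all libraries. SLC25A3, the mitochondrial phosphate carrier, had 409. These 3 made up between 29.1% and 33.3% of the summed carrier level in each library, and all 34 members of the SLC25 family 49.5% on average. The group means of SLC25A5 lay within a 1.04-fold range, those of SLC25A6 within 1.05-fold and those of SLC25A3 within 1.08-fold, and none of the 3 was called in any comparison. Next in level came SLC25A1, the citrate carrier, at 136, SLC16A3, a lactate exporter, at 104, and SLC39A7, which releases zinc from the secretory pathway, at 96.5. SLC1A5 for glutamine (75.9), SLC44A2 for choline (75.8), SLC25A39 (73.0) and the anion exchanger SLC4A2 (71.8) followed. Reads shared between near-identical copies, as among the ADP/ATP carriers and between SLC2A3 and SLC2A14, make the split between such genes uncertain.

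**Figure D1:**
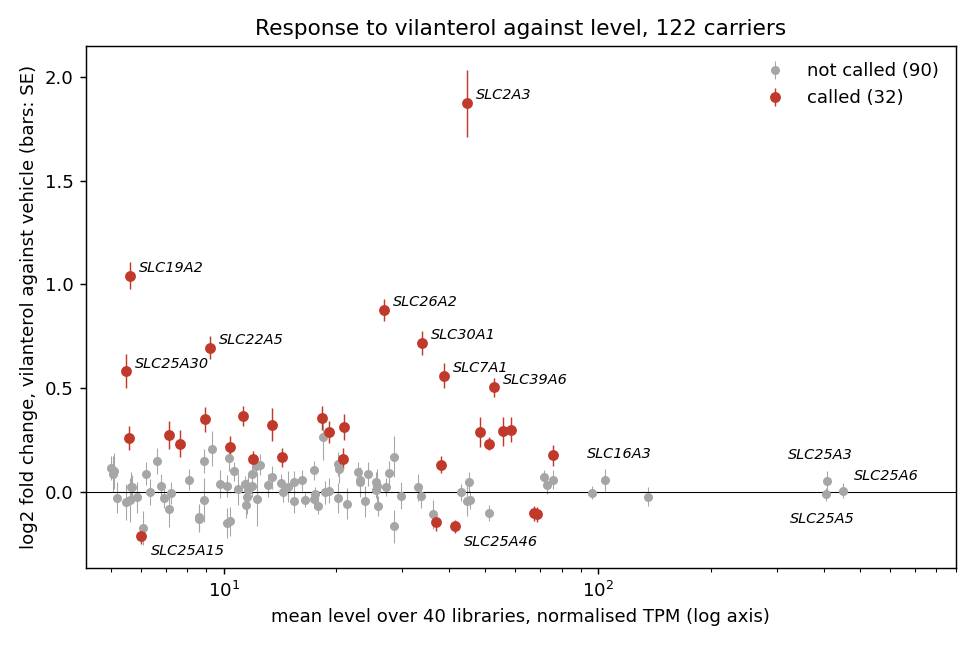
Log2 fold change of each of the 122 carriers with vilanterol against vehicle (vertical axis, on the log2(value + 1) scale, bars are SE) against its mean level over 40 libraries (horizontal log axis, normalised TPM). The 32 called carriers (red) lie below 100 normalised TPM, and the carriers above 100 lie near 0.

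Vilanterol raised 27 carriers and lowered 5, beside 17.7% of all genes called (9.69% higher, 7.97% lower); in 23 of the 32 the 2 groups did not overlap. The 27 are 22.1% of the carriers and the 5 are 4.098%. Carriers were held to a mean of 5 and all genes tested to a mean of 1. SLC19A2, SLC16A7 and SLC25A30, called higher with vilanterol and with ONO at 1 uM, met the level rule only through treated libraries. The median log2 fold change was 0.04 over the carriers and -0.01 over all genes. ONO at 1 uM raised 14 carriers and lowered 1, beside 7.21% of all genes called (4.19% higher, 3.02% lower). In 14 of the 15 the groups did not overlap. Non-overlap was counted for called carriers only, here and with vilanterol, so no share over all genes stands beside it. All 14 carriers called higher with ONO at 1 uM were also among the 27 called higher with vilanterol. Both comparisons use the same vehicle libraries. Among the 27 raised by vilanterol were 6 of the 21 metal carriers, 5 of the 14 amino acid carriers and 4 of the 13 carriers of inorganic ions and sulfate. There were also 4 of the 8 carriers of monocarboxylates and organic ions, 3 of the 34 mitochondrial carriers and 2 of the 8 sugar carriers. The rest were 2 of the 13 of vitamins and related cargo, and 1 of the 3 on the phosphate list. None of the 7 carriers of nucleosides and nucleotide sugars was called in either of these comparisons.

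**Figure D2:**
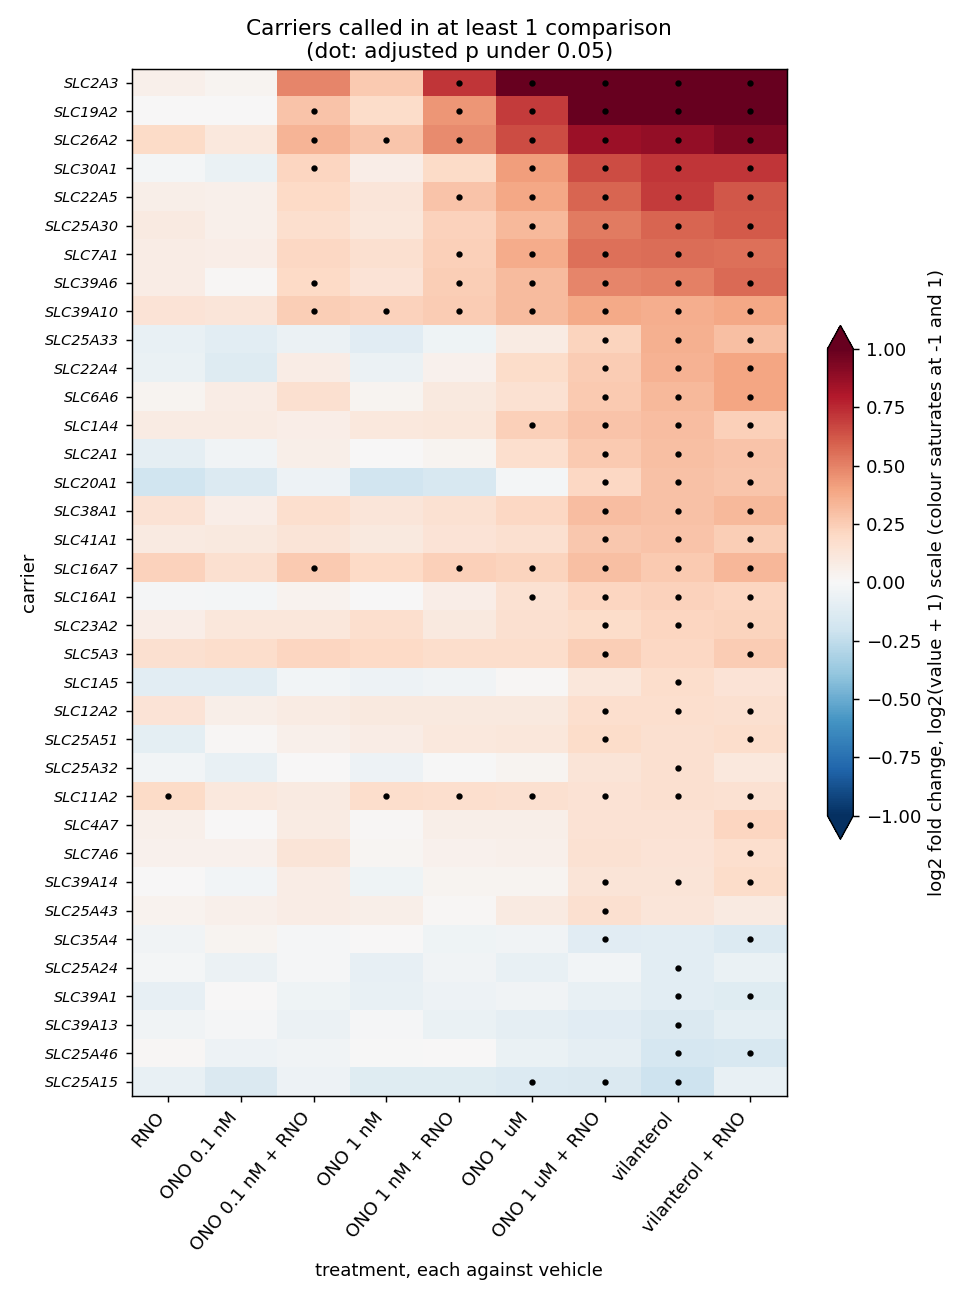
Log2 fold change against vehicle (colour, on the log2(value + 1) scale, saturating at -1 and 1) of 36 of the carriers called at least once (rows) in 9 treatments (columns), with a dot where limma's adjusted p was under 0.05. SLC2A3, SLC19A2 and SLC26A2 at the top carry the strongest colours, and the 6 carriers called lower stand at the bottom.

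SLC2A3, a high-affinity facilitative glucose transporter, moved most. In vehicle its 4 libraries read 19.0, 23.4, 21.3 and 23.4 normalised TPM. With ONO at 1 uM they read 42.9, 45.5, 50.6 and 55.1, and with vilanterol 69.8, 89.1, 83.7 and 87.7. All 8 of these agonist libraries lay above all vehicle libraries, and the vilanterol libraries lay above all those of ONO at 1 uM. SLC2A3 rose 2.23-fold with ONO at 1 uM (log2 1.12, SE 0.16, limma adjusted p = 4.81e-06) and 3.79-fold with vilanterol (log2 1.87, SE 0.16, adjusted p = 2.53e-11). At 1 nM ONO the mean was 26.3 ± 3.56 and at 0.1 nM it was 22.4 ± 4.07 (SD, n = 4), neither called. SLC2A1, the glucose transporter found in most cell types, read 55.5, 57.7, 48.8 and 55.9 in vehicle and 73.4, 65.2, 61.6 and 68.9 with vilanterol, with no overlap. It rose 1.24-fold with vilanterol (adjusted p = 0.000405) and was at 61.5 ± 4.60 with ONO at 1 uM, not called. SLC5A3, which brings in myo-inositol, was called higher only in 2 combinations, ONO at 1 uM with RNO (1.205-fold, adjusted p = 0.0430) and vilanterol with RNO (1.22-fold, adjusted p = 0.02999). Both SLC5A3 calls were lost without vehicle replicate 1 or 3 or replicate 2 or 3 of the combination, and the first also without its replicate 4, with an adjusted p of 0.215 and 0.159 without vehicle replicate 3.

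SLC19A2, a thiamine transporter of the plasma membrane, was low in vehicle, at 4.05, 3.19, 3.69 and 3.49 normalised TPM. It read 6.94, 6.57, 6.19 and 6.15 with ONO at 1 uM and 9.38, 8.09, 8.28 and 8.15 with vilanterol. The 3 groups did not overlap and stood in that order. SLC19A2 rose 1.79-fold with ONO at 1 uM (log2 0.70, SE 0.07, limma adjusted p = 7.92e-10) and 2.35-fold with vilanterol (log2 1.04, SE 0.07, adjusted p = 1.12e-14). It belongs to the carriers only through the treated libraries, since its vehicle mean was 3.60. SLC23A2, which carries ascorbate, rose 1.17-fold with vilanterol (adjusted p = 0.00538) and was the other vitamin carrier called. The folate carrier SLC19A1 and the riboflavin carrier SLC52A2 were not called in any comparison.

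SLC26A2, the sulfate transporter that supplies sulfation of proteoglycans, rose in steps with the ONO dose. Its vehicle libraries read 19.8, 20.0, 17.0 and 17.5 normalised TPM, those of ONO at 1 nM 22.2, 23.7, 22.5 and 22.2, and those of ONO at 1 uM 30.1, 30.5, 30.4 and 27.6. With vilanterol they read 35.7, 36.6, 35.97 and 31.5. Each of these groups lay wholly above the one before it. SLC26A2 rose 1.22-fold at 1 nM (limma adjusted p = 0.00264), 1.60-fold at 1 uM (log2 0.65, SE 0.05, adjusted p = 2.62e-11) and 1.88-fold with vilanterol (log2 0.88, SE 0.05, adjusted p = 4.35e-15). In 35 of the 36 treated libraries it was above the highest vehicle library.

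**Figure D3:**
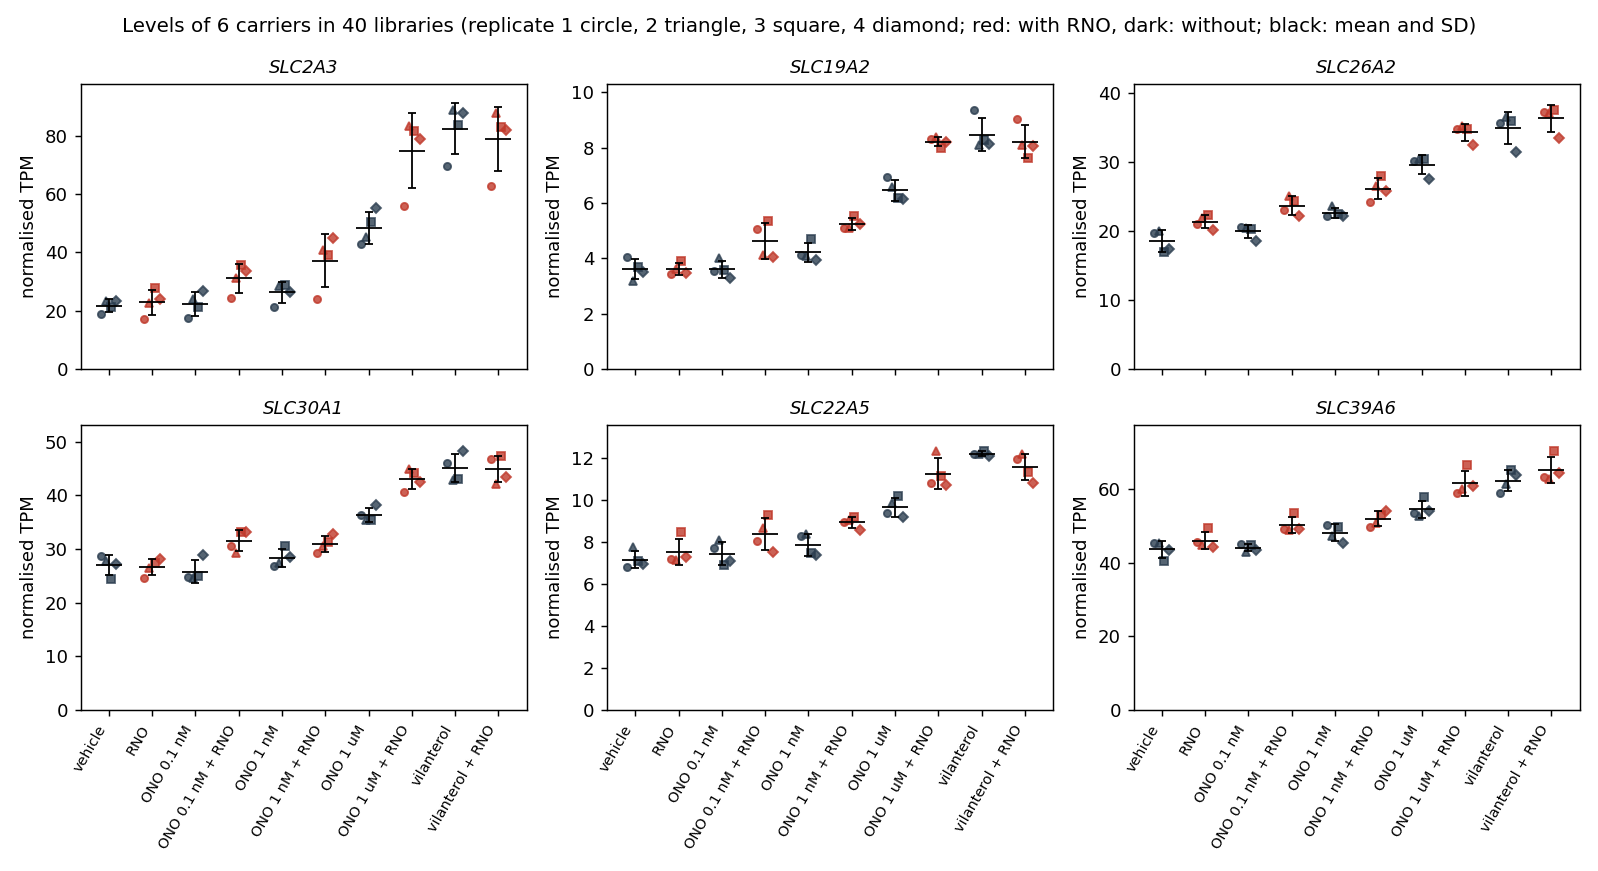
Normalised TPM (vertical axes, from 0) of SLC2A3, SLC19A2, SLC26A2, SLC30A1, SLC22A5 and SLC39A6 in the 4 libraries of each of 10 groups; marker shape gives the replicate number, red marks groups with RNO, black lines give mean and SD. All 6 carriers are higher with vilanterol than with ONO at 1 uM, and the circles (replicate 1) are the lowest points of SLC2A3 in every group.

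Of the 21 carriers of iron, zinc, copper and magnesium, 4 were called higher with ONO at 1 uM and 6 with vilanterol, which also lowered 2. Of all genes, 4.19% were called higher with ONO at 1 uM, and 9.69% higher and 7.97% lower with vilanterol. The 2 lowered were near the share of all genes. SLC30A1, which exports zinc from the cell, read 28.6, 27.8, 24.4 and 27.2 normalised TPM in vehicle. It read 36.4, 35.4, 35.4 and 38.1 with ONO at 1 uM and 46.0, 42.8, 43.0 and 48.3 with vilanterol, and these 3 groups did not overlap. SLC30A1 rose 1.35-fold (log2 0.42, SE 0.06, limma adjusted p = 1.46e-06) and 1.67-fold (log2 0.72, SE 0.06, adjusted p = 2.61e-12). The zinc importers SLC39A6 and SLC39A10 rose too. SLC39A6 went from a mean of 43.7 ± 2.34 in vehicle to 54.5 ± 2.22 with ONO at 1 uM (adjusted p = 6.86e-06) and 62.3 ± 2.80 with vilanterol (adjusted p = 1.18e-10; SD, n = 4 each). SLC39A10 went from 9.31 ± 0.573 to 11.9 ± 0.621 (adjusted p = 8.23e-06) and 12.3 ± 0.701 (adjusted p = 2.44e-07), and was also called with ONO at 1 nM, at 11.1 ± 0.728 (adjusted p = 0.00505). SLC39A14, which carries zinc and iron, rose 1.097-fold with vilanterol (adjusted p = 0.0220), a call lost with equal medians (0.0770) and without vehicle replicate 3 (0.123) or 4 (0.0600) or vilanterol replicate 1 (0.0528) or 3 (0.0862). SLC41A1, a magnesium transporter, rose 1.23-fold (adjusted p = 0.000101) from vehicle libraries of 17.7, 19.0, 14.1 and 17.8, of which replicate 3 was the lowest. Lower with vilanterol were 2 zinc carriers, SLC39A1, which fell by 7.46% (adjusted p = 0.0378), and SLC39A13, which fell by 9.84% (adjusted p = 0.0109). Vehicle replicate 3 of SLC39A1, at 78.5, stood above the other vehicle libraries at 69.3, 69.6 and 68.8, and without it the adjusted p was 0.253. The call of SLC39A1 was also lost with library weights (0.163) and without vilanterol replicate 1 (0.0598), 2 (0.113) or 3 (0.104).

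SLC11A2, the divalent metal transporter that brings iron across the plasma membrane and out of endosomes, had a pattern unlike that of the graded carriers. In vehicle it read 10.9, 11.1, 10.5 and 10.7 normalised TPM. With RNO alone it read 11.9, 12.7, 12.8 and 12.7. All 36 treated libraries lay above the highest vehicle library. The increase with RNO alone was 1.16-fold (log2 0.19, SE 0.04, limma adjusted p = 0.00923). It made SLC11A2 the only carrier called with RNO alone in the main fit, beside 0.238% of all genes (0.103% higher, 0.135% lower). Of the 122, 15 had an unadjusted p under 0.05. Without vehicle replicate 2, 3 carriers were called. A fit with the replicate number as a term also called more than SLC11A2 alone, as given below. With ONO at 1 nM its libraries read 11.2, 13.2, 12.6 and 12.5, with ONO at 1 uM 12.3, 11.99, 12.3 and 12.1, and with vilanterol 11.8, 11.9, 12.6 and 12.4. These 3 groups overlapped with each other and none overlapped with vehicle. SLC11A2 was called in 7 of the 9 treatments, with increases between 1.11-fold and 1.16-fold. The exceptions were ONO at 0.1 nM (11.7 ± 0.318, adjusted p = 0.804) and the same dose with RNO (11.6 ± 0.325, adjusted p = 0.364). All 9 comparisons with vehicle use the same 4 vehicle libraries. SLC26A2 and SLC39A10 were likewise called in 7 of the 9 treatments. For each of them, 35 of the 36 treated libraries lay above the highest vehicle library. The SLC11A2 call with RNO alone was lost without RNO replicate 4 (adjusted p = 0.0587), and that with ONO at 1 nM was lost without ONO 1 nM replicate 2 (adjusted p = 0.0571). Both calls were also lost when only the groups compared entered the fit, which called no carrier in either comparison.

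**Figure D4:**
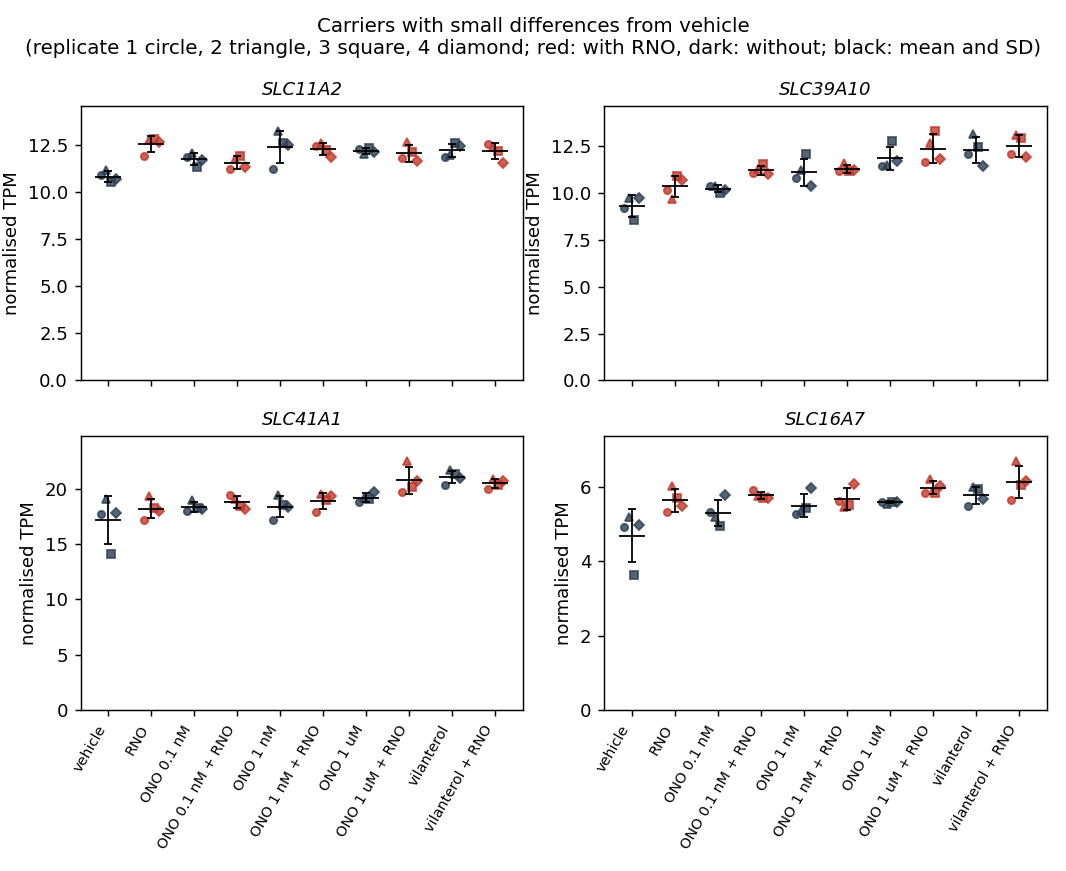
Normalised TPM (vertical axes, from 0) of SLC11A2, SLC39A10, SLC41A1 and SLC16A7 in the 4 libraries of each of 10 groups, with marker shape for the replicate number, red for groups with RNO, and black lines for mean and SD. All 36 treated libraries of SLC11A2 lie above its 4 vehicle libraries, and the square (replicate 3) is the lowest vehicle point of each of the 4 carriers.

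Over the 10 group means, carriers that followed SLC11A2 closely were SLC39A9 (Pearson r = 0.80), SLC37A3 (0.80), SLC12A2 (0.77) and SLC1A1 (0.73). The most opposite were SLC25A26 (-0.84), SLC50A1 (-0.76), SLC25A20 (-0.72), SLC25A22 (-0.69) and SLC25A17 (-0.68). These correlations describe 10 points whose genes share the same libraries. A list of 25 genes of iron handling includes carriers such as SLC39A14 but not SLC11A2. Of this list 24 were tested, and none was called with ONO at 1 uM. With vilanterol 2 of the 24 were called higher and 2 lower, near the shares of all genes (9.69% higher, 7.97% lower). The 2 higher were SLC39A14 and TFRC, the transferrin receptor, which rose 1.54-fold (limma adjusted p = 0.00287). The hemochromatosis protein HFE fell by 14.6% (adjusted p = 0.0381) and the iron chaperone PCBP1 fell by 6.97% (adjusted p = 0.0210). The median log2 fold change of the list was -0.01 with vilanterol, like that of all genes.

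SLC22A5, the carnitine transporter of the plasma membrane, read 6.83, 7.76, 7.13 and 6.99 normalised TPM in vehicle. It read 9.37, 9.88, 10.2 and 9.22 with ONO at 1 uM and 12.2, 12.2, 12.4 and 12.1 with vilanterol. Its groups did not overlap, and the SD of the vilanterol libraries was 0.103 (n = 4). SLC22A5 rose 1.35-fold (limma adjusted p = 7.74e-06) and 1.70-fold (adjusted p = 7.63e-12). SLC22A4, its neighbour in the RefSeq gene order and a carrier of ergothioneine, was called higher with vilanterol (1.301-fold, adjusted p = 3.62e-05) and not with ONO at 1 uM (9.45 ± 0.949 against 8.21 ± 1.06 in vehicle, SD, n = 4). Among the lactate and pyruvate carriers SLC16A1 rose 1.11-fold with ONO at 1 uM (adjusted p = 0.000961) and 1.18-fold with vilanterol (adjusted p = 4.14e-07), from vehicle libraries of 48.7, 46.9, 48.5 and 47.5. SLC16A7 read 4.92, 5.20, 3.64 and 4.97 in vehicle and between 5.54 and 5.60 with ONO at 1 uM. Replicate 3 was again the lowest vehicle library. SLC16A7 was called higher with ONO at 1 uM (1.19-fold, adjusted p = 0.0153) and with vilanterol (1.23-fold, adjusted p = 0.00151). Without vehicle replicate 3 the adjusted p of SLC16A7 with ONO at 1 uM was 0.139, and with library weights it was 0.103.

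Of the 14 amino acid carriers, 5 rose with vilanterol and 2 of them with ONO at 1 uM. Of all genes, 9.69% were called higher with vilanterol and 4.19% with ONO at 1 uM. SLC7A1, which takes up arginine and lysine, read 36.4, 34.2, 24.6 and 31.5 normalised TPM in vehicle, 42.6, 38.6, 42.1 and 40.02 with ONO at 1 uM and 48.1, 46.5, 46.9 and 45.5 with vilanterol. The vehicle libraries were spread more widely than either agonist group, with replicate 3 the lowest, and all lay below both. SLC7A1 rose 1.29-fold (log2 0.37, SE 0.06, limma adjusted p = 3.49e-05) and 1.48-fold (log2 0.56, SE 0.06, adjusted p = 4.93e-09). SLC1A4, which exchanges small neutral amino acids, rose 1.19-fold with ONO at 1 uM (adjusted p = 0.0127) and 1.25-fold with vilanterol (adjusted p = 0.000280). SLC38A1, a sodium-coupled glutamine importer, rose 1.22-fold with vilanterol (adjusted p = 0.00326), the taurine transporter SLC6A6 1.26-fold (adjusted p = 0.00297) and the glutamine exchanger SLC1A5 1.13-fold (adjusted p = 0.0112). With ONO at 1 uM the call of SLC1A4 was lost without vehicle replicate 3 (adjusted p = 0.101) or ONO 1 uM replicate 4 (0.0819), and that of SLC1A5 with vilanterol without vilanterol replicate 4 (0.0688). SLC43A3, SLC38A10 and SLC36A4 were among the 9 amino acid carriers not called with vilanterol.

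The phosphate list held 3 carriers, SLC20A1, SLC20A2 and SLC17A5, and 1 was called. Listing says nothing of what SLC17A5 carries, and SLC25A3 was counted with the mitochondrial carriers. SLC20A1, a sodium-phosphate cotransporter, read 53.8, 52.3, 57.7 and 56.4 normalised TPM in vehicle, 55.5, 49.2, 57.7 and 55.2 with ONO at 1 uM and 68.6, 65.1, 72.4 and 64.7 with vilanterol. The ONO libraries overlapped those of vehicle, and the vilanterol libraries lay above both. SLC20A1 rose 1.23-fold with vilanterol (log2 0.29, SE 0.07, limma adjusted p = 0.00239). The sodium-potassium-chloride cotransporter SLC12A2, which loads chloride for secretion, rose 1.13-fold with vilanterol (adjusted p = 0.00965; 0.0944 without vehicle replicate 3). Of the partner subunits and regulators of carriers, on a list of 18 of which 16 were tested, ARRDC3 was called higher with ONO at 1 uM, beside 4.19% of all genes. With vilanterol 3 of the 16 were called higher, beside 9.69% of all genes: ARRDC3, and the kinases WNK1 and OXSR1, which control the chloride cotransporters. ARRDC3, an arrestin-like adaptor for membrane proteins, went from 9.33 to 17.5 with ONO at 1 uM and 23.4 with vilanterol (adjusted p = 8.43e-05 and 3.22e-08), WNK1 rose 1.197-fold (adjusted p = 0.0386) and OXSR1 1.11-fold (adjusted p = 0.0107) with vilanterol.

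Of the 34 mitochondrial carriers, 3 rose and 3 fell with vilanterol, near the shares of all genes (9.69% higher, 7.97% lower). SLC25A30 read 4.36, 4.19, 4.34 and 4.35 normalised TPM in vehicle, between 5.54 and 5.85 with ONO at 1 uM, and 6.40, 6.17, 7.92 and 7.43 with vilanterol. No group overlapped another. SLC25A30 rose 1.31-fold with ONO at 1 uM (limma adjusted p = 0.00786) and 1.62-fold with vilanterol (adjusted p = 1.10e-06). SLC25A33, which imports pyrimidine nucleotides into mitochondria, read 15.9, 18.5, 17.8 and 17.7 in vehicle and 21.3, 21.4, 23.2 and 24.9 with vilanterol, 1.297-fold higher (adjusted p = 2.41e-05). With ONO at 1 uM it was at 18.6 ± 1.53 (SD, n = 4), overlapping vehicle. SLC25A32, a folate carrier, rose 1.12-fold with vilanterol (adjusted p = 0.0236). That call was lost with equal medians (adjusted p = 0.0938) and without any of vehicle replicates 1, 2 and 4 or vilanterol replicates 1 and 2 (adjusted p between 0.0525 and 0.0980). SLC25A15, the ornithine carrier, was called lower with both agonists, but the call with ONO at 1 uM depended on the settings. It fell by 10.5% with ONO at 1 uM (adjusted p = 0.0390) and fell by 15.7% with vilanterol (adjusted p = 0.000349). Its vehicle libraries read 6.73, 6.40, 6.34 and 6.83 and those of vilanterol 5.79, 5.46, 5.50 and 5.43, without overlap. With ONO at 1 uM the call of SLC25A15 was lost with equal library totals (adjusted p = 0.115) and with no filter (0.0542). It was also lost without vehicle replicate 1 (0.0807) or 4 (0.116) and without ONO 1 uM replicate 1 (0.173) or 2 (0.0547). SLC25A46, a carrier-like protein of the outer membrane that acts in mitochondrial fission and fusion, fell by 11.1% with vilanterol (adjusted p = 0.000184), and SLC25A24, the calcium-regulated ATP-Mg and phosphate exchanger, fell by 7.07% (adjusted p = 0.0411), with overlapping groups. The call of SLC25A24 was lost with equal library totals (adjusted p = 0.0703), with library weights (0.184), and without vehicle replicate 1 (0.115) or 3 (0.146) or vilanterol replicate 2 (0.122), 3 (0.0557) or 4 (0.113).

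At matched time, ONO at its highest dose gave smaller steps than vilanterol in 8 carriers, all called lower. Of all genes, 2.14% were called (0.421% higher, 1.72% lower). Non-overlap of the groups was again counted for called carriers only, and held in all 8. They were SLC2A3 (0.588-fold, limma adjusted p = 0.00507), SLC19A2 (0.762-fold, adjusted p = 0.00161), SLC22A5 (0.791-fold, adjusted p = 0.000919), SLC20A1 (0.804-fold, adjusted p = 0.00867), SLC30A1 (0.807-fold, adjusted p = 0.00119), SLC25A33 (0.821-fold, adjusted p = 0.00668), SLC26A2 (0.849-fold, adjusted p = 0.0126) and SLC39A6 (0.875-fold, adjusted p = 0.0176). SLC19A2, counted among the 8, met the level rule only through treated libraries. No carrier was called higher with ONO at 1 uM than with vilanterol. In normalised TPM the rise with ONO at 1 uM was 44.0% of the rise with vilanterol for SLC2A3, 58.6% for SLC19A2, 67.8% for SLC26A2, 51.7% for SLC30A1 and 49.4% for SLC22A5. For SLC11A2 it was 99.0% and for SLC39A10 85.3%, while for SLC20A1 it was -4.9%. Without ONO 1 uM replicate 2 or without vilanterol replicate 3, 5 of the 122 carriers were called in place of 8. The calls of SLC39A6, SLC26A2, SLC25A33 and SLC20A1 were each lost on leaving out any of at least 2 of the 8 libraries, with adjusted p up to 0.0887.

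The 2 lower doses of ONO alone reached few carriers. At 0.1 nM no carrier was called by limma, the lowest adjusted p being 0.804, with 11 at an unadjusted p under 0.05 and 0% of all genes called. At 1 nM SLC26A2, SLC39A10 and SLC11A2 were called higher, 3 of the 122 beside 1.01% of all genes (0.651% higher, 0.357% lower), and 5 and 6 carriers were called without vehicle replicate 2 and vehicle replicate 1. Combined with RNO, the same doses were called against vehicle in 6 carriers at 0.1 nM (beside 1.12% of all genes, 0.905% higher and 0.214% lower) and in 9 at 1 nM (beside 3.45%, 2.18% higher and 1.27% lower), all higher. The 6 were SLC26A2 (1.28-fold), SLC19A2 (1.29-fold), SLC16A7 (1.23-fold), SLC39A10 (1.21-fold), SLC30A1 (1.17-fold) and SLC39A6 (1.15-fold). Without vehicle replicate 3, vehicle replicate 4 or replicate 3 of the combination, 3 carriers were called. Leaving out vehicle replicate 3 lost the calls of SLC16A7, SLC30A1 and SLC39A6, with adjusted p given below. SLC19A2 and SLC16A7, called higher in every combination with RNO, met the level rule only through treated libraries. So did SLC25A30, called higher with ONO at 1 uM and RNO and with vilanterol and RNO. At 1 nM with RNO, SLC2A3 read 24.0, 40.9, 38.99 and 44.9 normalised TPM, 1.71-fold above vehicle (adjusted p = 0.00538), and its replicate 1 was close to the vehicle libraries. ONO at 1 uM with RNO was called in 29 carriers (27 higher, 2 lower, beside 15.8% of all genes, 8.92% higher and 6.86% lower) and vilanterol with RNO in 31 (28 higher, 3 lower, beside 18.4%, 10% higher and 8.44% lower). SLC35A4, of the nucleotide-sugar transporter family, was called lower in both. It fell by 7.49% with ONO at 1 uM and RNO (adjusted p = 0.0459) and fell by 9.15% with vilanterol and RNO (adjusted p = 0.0103). With equal library totals both calls of SLC35A4 were lost (adjusted p = 0.301 and 0.184). The first was also lost with no filter (0.0509) and without vehicle replicate 1 (0.137) or 2 (0.0796) or replicate 1 (0.0583), 3 (0.0735) or 4 (0.166) of the combination. SLC25A51, which brings NAD into mitochondria, was called higher in both (1.15-fold and 1.14-fold), and SLC25A43 in the first of them (1.125-fold, limma adjusted p = 0.0154). SLC4A7, a sodium-bicarbonate cotransporter, and SLC7A6, an amino acid exchanger, were called with vilanterol and RNO alone among the treatments (1.18-fold and 1.12-fold, adjusted p = 0.00804 and 0.03005). Without vehicle replicate 3 the adjusted p of SLC25A51 was 0.160 and 0.171 and that of SLC7A6 0.284. SLC25A51 was also lost without vehicle replicate 2 and, like SLC7A6, without replicate 2 or 3 of the combination. SLC25A43 was lost without vehicle replicate 4 (0.0551) or replicate 4 of the combination (0.0612), and SLC4A7 without replicate 3 of the combination (0.0525).

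Against the same agonist without it, RNO raised SLC19A2, SLC30A1 and SLC26A2 at 0.1 nM ONO, 3 of the 122 carriers beside 0.723% of all genes (0.659% higher, 0.0635% lower). SLC19A2, counted here and at 1 uM ONO, met the level rule only through treated libraries. The SLC19A2 libraries read 3.53, 4.01, 3.56 and 3.29 normalised TPM at 0.1 nM and 5.04, 4.11, 5.34 and 4.03 with RNO, which did not overlap (1.29-fold, limma adjusted p = 0.0216). Those of SLC30A1 read 24.7, 24.5, 25.0 and 28.9 alone and 30.6, 29.3, 33.1 and 33.2 with RNO (1.22-fold, adjusted p = 0.00431). SLC26A2 went from 20.0 ± 0.961 to 23.7 ± 1.31 (SD, n = 4; 1.19-fold, adjusted p = 0.0187). With RNO alone, SLC19A2 was at 3.62 ± 0.210 and SLC30A1 at 26.6 ± 1.54, both near vehicle. SLC26A2 was at 21.4 ± 0.946 with RNO alone and 18.6 ± 1.54 in vehicle (SD, n = 4), which was not called. All 4 of its libraries with RNO alone lay above its highest vehicle library. Leaving out ONO 0.1 nM replicate 4 or replicate 3 of the combination left 1 of these 3 calls. At 1 uM ONO, RNO raised SLC19A2 from 6.46 ± 0.371 to 8.22 ± 0.176 (1.27-fold, adjusted p = 0.0146) and SLC30A1 from 36.3 ± 1.27 to 43.0 ± 1.84 (1.18-fold, adjusted p = 0.0342), 2 of the 122 beside 0.604% of all genes (0.532% higher, 0.0715% lower). Both calls went without ONO 1 uM replicate 3 or without replicate 2 of the combination, and 1 went without any of ONO 1 uM replicates 1, 2 and 4 or replicates 3 and 4 of the combination. SLC19A2 also missed the threshold without replicate 1 of the combination (adjusted p = 0.0536). SLC2A3 was at 75.0 ± 12.7 with RNO and 48.5 ± 5.44 without (adjusted p = 0.0810). At 1 nM no carrier was called for the addition of RNO, beside 0.238% of all genes. The lowest limma adjusted p was 0.107, and 8 carriers had an unadjusted p under 0.05. With the replicate number as a term in the fit, some carriers were called there, as given below. On vilanterol, limma called no carrier and 0% of all genes, with 2 carriers at an unadjusted p under 0.05; there SLC2A3 was at 79.0 ± 11.05 with RNO and 82.6 ± 8.83 without.

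Whether RNO and an agonist together differed from the sum of their separate log2 changes was tested as an interaction for each of the 4 agonist treatments. No carrier was called in any of them with the main fit, which has no replicate term. With the replicate number as a term, carriers were called for the interaction at each ONO dose, as given below. Of all genes, 0.135% were called at ONO 0.1 nM, 0% at 1 nM, 0.0635% at 1 uM and 0.00794% with vilanterol, and 13, 14, 14 and 7 carriers had an unadjusted p under 0.05. Leaving out ONO 0.1 nM replicate 4, ONO 1 nM replicate 1 or RNO replicate 3 gave 1 called carrier in the first, the second and the third of these tests. SLC11A2 had a negative interaction in all 4, of -0.22 at 0.1 nM (SE 0.05, limma adjusted p = 0.0951), -0.21 at 1 nM (adjusted p = 0.244), -0.21 at 1 uM (adjusted p = 0.0919) and -0.20 with vilanterol (adjusted p = 0.504). These 4 values share the vehicle and RNO libraries. SLC20A1 at ONO 1 uM had an interaction of 0.42 (SE 0.10, adjusted p = 0.0829). Its libraries there read 44.9, 44.0, 54.2 and 49.1 normalised TPM with RNO alone and 61.8, 63.9, 67.0 and 61.7 with ONO at 1 uM and RNO together.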

How the data were processed

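RNA levels in 40 BEAS-2B libraries (10 groups of 4) were analysed from 1 deposited table, which lists 15788 genes. Per the labels' protocols, poly(A) libraries were made with a directional kit. The submitters' processing notes name bcl2fastq 2.18.0.12, kallisto and sleuth and the builds GRCh37 and hg19; for the others no version is stated. The authors deposited a normalised signal, TPM adjusted between samples; unadjusted TPM had been assumed. Read counts were not analysed here, so depth is unknown and no counting interval is given.

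Values were tested as log2(value + 1) for 12591 genes whose mean reached 1, in limma 3.58.1 (R 4.3.3, data.table, version 1.17.8) with 1 mean per group, an intensity trend and 30 residual degrees of freedom. The 18 contrasts were 14 comparisons of 2 groups and 4 interactions, beside an F test over the groups. Benjamini-Hochberg adjustment ran over all genes tested, with calls at an adjusted p under 0.05, two-sided. Folds and percent changes are ratios of mean normalised TPM; log2 changes come from log2(value + 1), so those of low genes are understated. The fit was tested on simulated data. Groups and replicate numbers come from the sample titles and treatments. Members, lists and named genes (SLC11A2, the 10 highest and lowest called changes of each comparison, the 12 highest means, the highest of each role, the genes around the threshold, those most and least like SLC11A2 and called genes of the listed pathways) were chosen with earlier results of these data known. Alternatives were another pseudocount, no filter, 2 rescalings, library weights, a replicate term, smaller fits and leaving out each library. Results for some carriers are not reported here, though counts over all carriers include them.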

Additional observations from a re-analysis of the deposited data

Results flagged for a closer look

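For 15 carriers (SLC11A2, those called against vehicle in at least 4 treatments, and those called for added RNO or between ONO at 1 uM and vilanterol), 150 groups of 4 libraries were checked for a library far from the other three, by the ratio of its gap to the group's range against Dixon's 95% limit. Chance alone passes that limit in about 1 in 20 groups, and 16 groups passed it. SLC26A2 did so in 4 groups, each time with replicate 4 as the lowest library: 27.6 normalised TPM with ONO at 1 uM, 32.5 with ONO at 1 uM and RNO, 31.5 with vilanterol and 33.5 with vilanterol and RNO. SLC25A30 did so with replicate 2 of vehicle (4.19, the lowest) and with replicate 3 of ONO at 1 nM (5.58, the highest) and of ONO at 1 nM with RNO (5.99, the highest).

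Single libraries that stood high were SLC39A6 replicate 3 with ONO at 0.1 nM and RNO (53.4), SLC30A1 replicate 4 with ONO at 0.1 nM (28.9), SLC39A10 replicate 2 with ONO at 1 nM and RNO (11.6), SLC22A5 replicate 3 with RNO (8.48) and SLC19A2 replicate 1 with vilanterol (9.38). Single libraries that stood low were SLC2A3 replicate 1 with ONO at 1 uM and RNO (56.1), SLC1A4 replicate 3 of vehicle (16.4), SLC11A2 replicate 1 with RNO (11.9) and SLC16A7 replicate 2 with ONO at 1 uM (5.54). For SLC16A7 the other 3 libraries of that group lay between 5.59 and 5.60, so the distance itself was small.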

How the results depend on the processing

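Of the 139 calls of carriers over all comparisons between groups, none changed direction under any alternative tried. They all stayed past the threshold with the other pseudocount, 10 lost it with equal library totals, 8 with equal medians, 18 with library weights, 4 without the filter and 79 when only the groups compared entered the fit. Of 1112 tests of these calls with 1 library left out, 134 missed the threshold. Rescaling moved the median of all genes by under 0.1 in every comparison. Depth is unknown, so what it limits could not be set out.

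Fitting only the groups compared leaves fewer residual degrees of freedom. It called 0 carriers with RNO (1 in the full fit), 0 with ONO at 1 nM (3), 8 with ONO at 1 uM (15), 16 with vilanterol (32), 0, 3, 13 and 14 with RNO combined with 0.1 nM, 1 nM, 1 uM and vilanterol (6, 9, 29 and 31), 0 and 1 for RNO added to 0.1 nM and 1 uM (3 and 2), and 5 for ONO at 1 uM against vilanterol (8). Library weights gave 3 for 0.1 nM with RNO, and 5, 2 and 6 for RNO added to 0.1 nM, 1 nM and 1 uM (3, 0 and 2); the cause was not tested.

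The labels share replicate numbers between groups. Same-numbered libraries deviated together with correlations between 0.0204 and 0.542, over 0.1 in 174 of 180 pairs, which was not every pair. With the replicate block, the carriers called were 8 with RNO, 18 and 30 with ONO at 1 nM and 1 uM, 12, 19 and 45 with 0.1 nM, 1 nM and 1 uM plus RNO, 5, 3 and 8 for RNO added to those doses, 15 for ONO at 1 uM against vilanterol, 5, 2 and 10 for the interactions at the 3 doses, and 56 for any difference (33 without the block). The replicate block without vehicle replicate 3 gave 4 with RNO, 10 and 24 with ONO at 1 nM and 1 uM, 16 with 1 nM plus RNO, 9, 4 and 14 for RNO added, 25 against vilanterol, 11, 2 and 14 for the interactions, and 60 for any difference.

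Leaving out single libraries gave between 0 and 3 carriers with RNO, 0 with ONO at 0.1 nM, 2 and 6 at 1 nM, 12 and 19 at 1 uM, 29 and 34 with vilanterol, and 3 to 8, 7 to 13, 23 to 30 and 26 to 33 for the combinations with RNO. The range was 1 to 3, 0 to 1, 0 to 2 and 0 to 0 for RNO added, 5 to 8 against vilanterol, 0 to 1 for the interactions with ONO and 0 for that with vilanterol. For any difference it was 21 to 28, lowest without replicate 2 of all groups. RNO gave 0 without RNO replicate 4 and 3 without vehicle replicate 2; RNO added to 1 nM gave 1 without replicate 1 of the combination. Without vehicle replicate 3, the calls of SLC16A7, SLC30A1 and SLC39A6 with 0.1 nM plus RNO were lost (adjusted p = 0.108, 0.270 and 0.138).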

Other observations

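For 24 of the 122 carriers, libraries of the same replicate number held the lowest or the highest place in at least 9 of the 10 groups. SLC2A3 was lowest in replicate 1 in 10 of 10 groups. SLC38A1, SLC25A23 and SLC38A5 were highest in replicate 1 in 10 of 10, SLC1A4 was highest in replicate 4 in 10 of 10, and SLC25A25 was lowest in replicate 3 in 10 of 10. SLC25A29, a mitochondrial carrier of basic amino acids, was lowest in replicate 1 and highest in replicate 4 in every group, reading 22.3, 28.9, 30.3 and 31.6 normalised TPM in vehicle and 29.1, 32.0, 30.8 and 34.8 with vilanterol. SLC25A25, a calcium-regulated ATP-Mg and phosphate exchanger, read 18.2, 18.8, 14.7 and 17.96 in vehicle and 23.2, 21.7, 16.7 and 23.4 with vilanterol; its replicate 3 with vilanterol lay below 3 of the 4 vehicle libraries. Neither was called against vehicle by limma. The labels do not say what a replicate number stands for.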
